A study of Mus musculus with 4 samples.

Results

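H19, Igf2 and 8 other imprinted genes that act on growth (Igf2r, Dlk1, Meg3, Cdkn1c, Peg3, Plagl1, Grb10 and Mest) were followed across 4 RNA-sequencing libraries of cultured mouse articular chondrocytes. The 10 genes were chosen by symbol, with the TPM ratios and reads of these same libraries known, so every value of theirs below is a description of these libraries. All 10 were present among the 55141 genes with TPM values (reads divided by gene length and scaled to the same sum in each library), and 9 of them reached 1 TPM on average over the 4 libraries. These 9 were above 1 TPM in each library. The tenth, Igf2, had no reads. In all, 13191 genes reached that level.

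Each library came from articular chondrocytes released from the femoral heads of mice on a C57BL/6 background (C57BL6/J for the mimic library) at 3 weeks of age with collagenase and grown in DMEM with 10% fetal bovine serum. The wild-type library is labelled Wild type, although the methods use floxed mice as Control, so the genotype behind it is not certain. In Cart-miR-23clus KO, both floxed miR-23a and miR-23b clusters are deleted by Cre under the Col2a1 promoter, which is active in cartilage cells, so cells in the culture that never used this promoter keep the clusters. In miR-26a KO, miR-26a is deleted from all cells. The mimic library is from miR-26a KO chondrocytes transfected with a double-stranded miR-26a mimic. Whether the miR-26a KO library received the control oligonucleotide is not stated in the labels. Where 4 values of a gene follow each other below, they stand in this order: wild type first, next the miR-23 cluster deletion, next the miR-26a deletion, and last the mimic. There was 1 library per condition, so no difference below has a replicate check and no test between conditions was made.

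An imprinted gene is used mainly from the copy inherited from 1 parent, and the choice is set by DNA methylation laid down in the germ line. Genes used from the paternal copy, here Igf2, Dlk1, Peg3, Plagl1 and Mest, mostly favour growth before birth, while genes used from the maternal copy, here H19, Igf2r, Cdkn1c, Meg3 and, in most tissues, Grb10, mostly restrain it. Igf2 encodes a growth factor of the fetus, and H19, its neighbour, is a long noncoding RNA that lies downstream of Igf2 and shares its enhancers. Many of these genes are high in fetal and newborn tissues and decline after birth. The parental copy that each read came from was not measured here.

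The libraries held 1505805, 1336496 and 1369924 reads on genes, and 1449246 reads were recovered for the mimic library. Reads of this 3′ method start near the polyadenylated end, so the deleted miRNAs are not measured by it, and their 8 precursor genes had 0 reads in all 4 libraries, wild type included. The deletions were therefore not checked by these data. All 8 chondrocyte markers had reads in each library, with a summed level of 35852 CPM (reads scaled to the sum of reads on genes with TPM values, with no division by length) in wild type and 27115 to 27343 in the other three. Markers of other cells were present too. The 8 osteoblast markers summed to 34156, 6965, 15861 and 18321 CPM, most of it from Col1a1. Ifitm5 was at 0 in Cart-miR-23clus KO, and Dmp1 was at 0 there and with the mimic. Endothelial, skeletal muscle and erythroid markers had at most 1 read per library in sum. In bulk RNA, fewer cells of a type and less RNA per cell cannot be told apart.

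Of the miRNAs that were deleted or added, 5 are shown, because the transcripts of the imprinted genes were searched for matches to their seeds. The sequence of miR-23b is not shown here. Mature sequences are from RefSeq on GRCm38.p6 and read 5′ to 3′, with the seed, bases 2 to 8, in capitals. miR-23a, miR-27a and miR-24 come from the miR-23a cluster and miR-23b, miR-27b and miR-24 from the miR-23b cluster. The sense strand of the mimic, as the labels give it, is the same 22 bases as miR-26a-5p.
mmu-miR-23a-3p: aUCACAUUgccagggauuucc
mmu-miR-27a-3p: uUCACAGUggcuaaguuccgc
mmu-miR-27b-3p: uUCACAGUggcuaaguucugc
mmu-miR-24-3p: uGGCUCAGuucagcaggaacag
mmu-miR-26a-5p: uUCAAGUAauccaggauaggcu

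The matches searched on the transcript strand were AATGTGA for miR-23, ACTGTGA for miR-27, CTGAGCC for miR-24 and TACTTGA for miR-26a. Annotated 3′ UTRs were searched for the coding genes and whole transcripts for H19 and Meg3. A match was found for miR-23 in 4 of the 10 genes (H19, Meg3, Peg3 and Plagl1), for miR-27 in 4 (Dlk1, Meg3, Plagl1 and Mest), for miR-24 in 2 (Meg3 and Peg3) and for miR-26a in 1 (Grb10). Igf2, Igf2r and Cdkn1c held none in the windows searched. Over 11203 genes with a UTR that reached 1 TPM on average, the same matches were in the UTRs of 19.6%, 21.3%, 23.4% and 13.5%. The whole transcripts searched for H19 and Meg3 are not like those UTRs. The matches below are those that the results return to. Capitals mark the match to the seed, and in Dlk1 and Grb10 an a follows it, opposite base 1 of the miRNA, which makes a match of 8 bases.
H19, miR-23: aggtgtggtcAATGTGAcagaaagaca
Peg3, miR-23: gaccatattcAATGTGAtgagggggga
Plagl1, miR-23: atgttgttccAATGTGAgttacgactt
Dlk1, miR-27: ttgaccactcACTGTGAaaagggctaa
Mest, miR-27: ataaaaacaaACTGTGAcaaaaatgg
Grb10, miR-26a: cttcccattaTACTTGAaaagcttttt

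Levels are given as reads, as CPM and as TPM. A gene was called higher or lower when the ratio of its TPM values, with 0.5 TPM added to each, was above 2 or below 0.5. Intervals are exact 95% Clopper-Pearson intervals of the ratio, taken on CPM. They cover counting error only and not the spread between cultures or mice. They also take each read as an independent molecule, which PCR copies are not, so they may be too narrow. The wild-type library is in both comparisons of a knockout with wild type, and the miR-26a KO library is in 3 of the 4 comparisons, so the comparisons are not independent.

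In Cart-miR-23clus KO against wild type, 2 of 9 genes, H19 and Dlk1, were called higher and 0 were called lower, where 8.98% of the 13191 genes were called higher and 7.93% lower. In miR-26a KO against wild type, 4 of 9 (H19, Cdkn1c, Peg3 and Mest) were called lower and 1 (Dlk1) was called higher, where 7.60% of all genes were lower and 7.83% higher. The mimic library against miR-26a KO had 0 of 9 past either bound, where 5.64% of genes were higher and 6.07% lower. Between the knockouts, Cart-miR-23clus KO had 4 of 9 (H19, Dlk1, Cdkn1c and Mest) above miR-26a KO and 0 below it, where 8.05% and 7.29% of genes were called. The genes were listed with such results known, so these shares describe the list and support nothing about it. The intervals left out 1 in more of them. In Cart-miR-23clus KO to wild type, 5 of 9 lay above 1 and 3 below, where 10.7% and 8.44% of all genes did. In miR-26a KO to wild type 2 lay above and 6 below, where 9.03% and 6.69% did, with the mimic 2 and 2, where 4.40% and 3.87% did, and between the knockouts 7 and 1, where 7.48% and 7.29% did. At 99%, Plagl1 in Cart-miR-23clus KO to wild type (0.985 to 1.50) and Grb10 in miR-26a KO to wild type (0.733 to 1.01) no longer left out 1, nor did H19 and Grb10 with the mimic. Of the 9 genes, 7 had at least 191 reads in each library, and an interval leaves out 1 more readily in genes with many reads. Both parental classes appear among the called genes: in miR-26a KO, the lower ones were the maternally used H19 and Cdkn1c and the paternally used Peg3 and Mest.

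**Figure D1:**
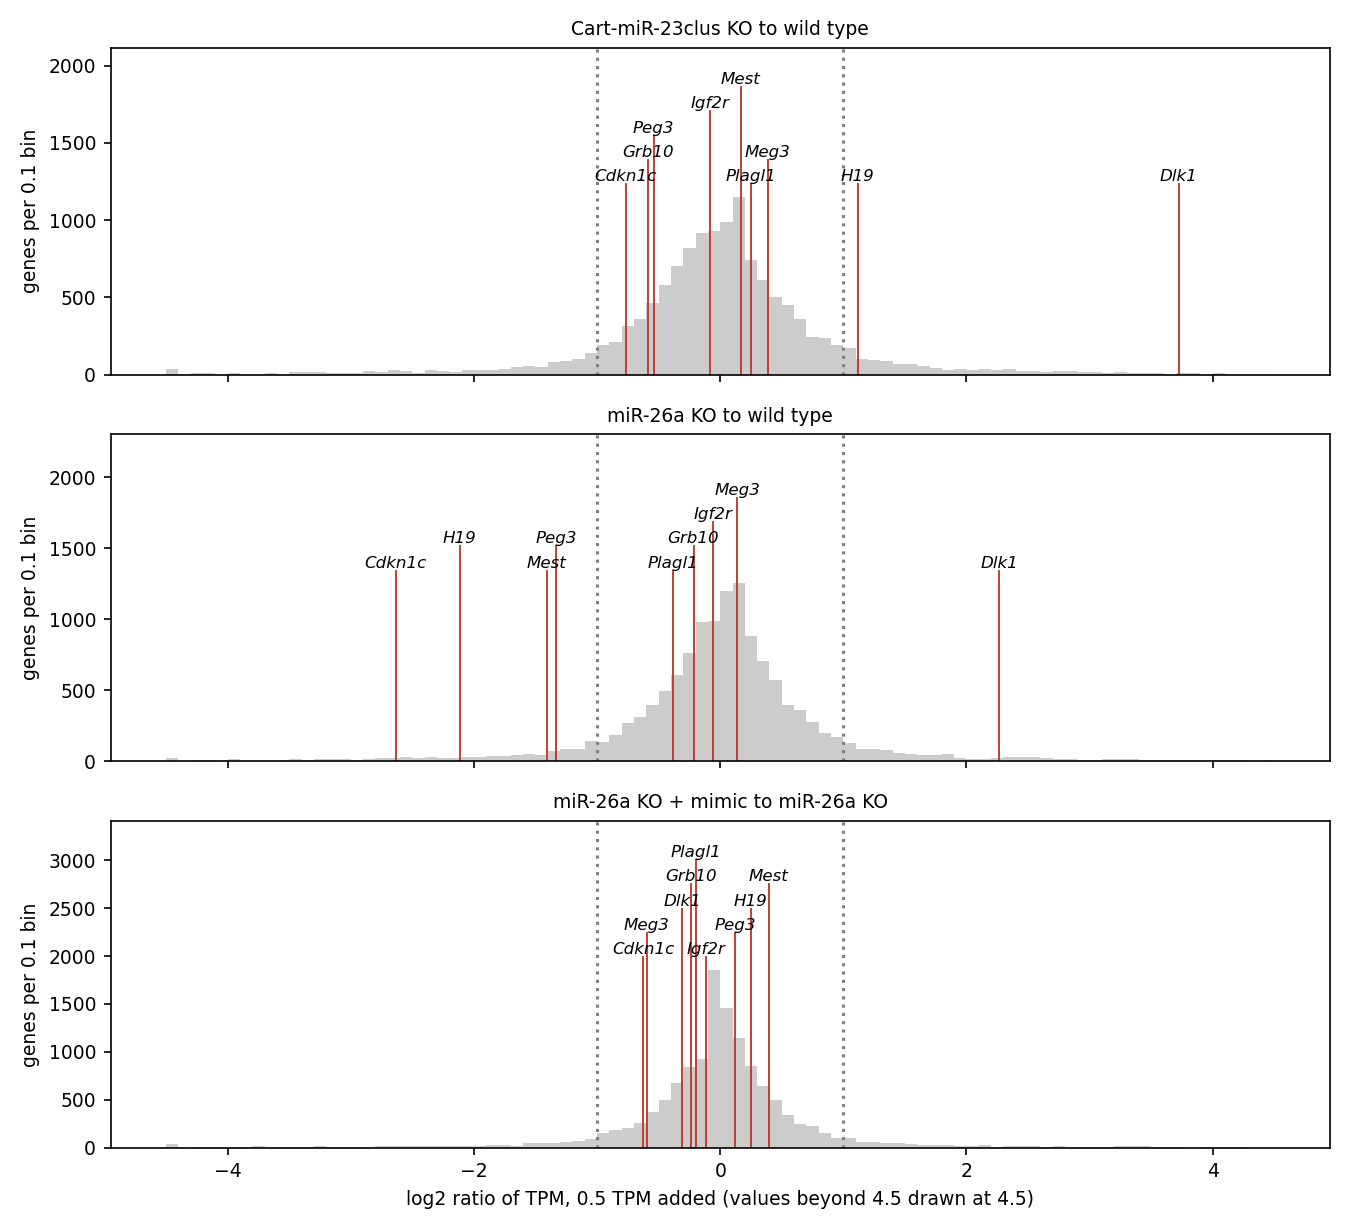
Distribution of log2 TPM ratios (0.5 TPM added) over the 13191 genes that reached 1 TPM on average, in number of genes per bin, for 3 comparisons. Red lines mark the 9 imprinted genes and dotted lines mark 2-fold. Dlk1 lies far to the right in both knockouts against wild type, H19 lies on opposite sides in them, and in the mimic comparison all 9 lie within the dotted lines.

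The median log2 ratio of the 9 genes was 0.17 in Cart-miR-23clus KO, against 0.00 for all genes tested, and -0.38 in miR-26a KO, against 0.03. For the mimic against miR-26a KO it was -0.20, against -0.01, and for Cart-miR-23clus KO against miR-26a KO 0.79, against -0.02. In sum, the 10 genes took 4127, 5836, 2680 and 2293 CPM. H19 and Meg3 together made up most of these reads, and H19 alone was 25.5%, 40.1%, 9.06% and 12.7% of them. Both differences of a knockout's sum from wild type lay more in H19 than in any other of the genes.

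H19 (chr7:142575529-142578143, minus strand, GRCm38) had 1578, 3109, 331 and 421 reads. These are 1053, 2341, 243 and 290 CPM. The library of the miR-23 cluster deletion was highest and that of the miR-26a deletion lowest, with wild type between them. The TPM ratio to wild type was 2.17 (95% interval 2.09 to 2.36) in Cart-miR-23clus KO and 0.230 (0.204 to 0.260) in miR-26a KO. Between the knockouts H19 differed 9.42-fold (8.60 to 10.8), and 5.10% of genes had a larger spread over the 4 libraries. With the mimic, H19 was 1.19 times the level in miR-26a KO (1.03 to 1.39, and 0.988 to 1.45 at 99%), and wild type remained 3.65 times above the mimic library (3.25 to 4.05). H19 holds a miR-23 match, shown above, and no match for miR-26a.

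H19 is also the precursor of miR-675, whose gene had 0 reads in each library. The mature sequences are shown because H19 is their host.
mmu-miR-675-5p: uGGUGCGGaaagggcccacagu
mmu-miR-675-3p: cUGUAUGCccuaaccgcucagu

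Among 9012 genes that reached 5 TPM on average, the 5 whose log2 profile over the 4 libraries lay nearest to that of H19 were Esm1, Mir351, Lpl, Lgr5 and Msr1, at root mean square distances of 0.32, 0.40, 0.44, 0.45 and 0.48 on the log2 scale. Esm1, secreted by endothelial cells among others, had 21, 49, 2 and 5 reads. Lpl, the lipase of fat cells and macrophages, had 338, 620, 112 and 173. Lgr5 and Msr1, a scavenger receptor of macrophages, had 66, 56, 8 and 13 reads and 10, 23, 4 and 5 reads. The likeness rests on 4 points and partly on few reads.

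Summed markers of 2 other cell types had the same highest and lowest libraries as H19. The 6 adipocyte markers, one of which is Lpl, summed to 295, 733, 164 and 219 CPM. Lpl itself carried most of the sum in wild type, and the low in miR-26a KO lies mainly in it. Fabp4, a fatty acid binding protein of fat cells and macrophages, had 57, 223, 66 and 105 reads, and Pparg, the regulator of fat-cell differentiation, had 38, 115, 44 and 38. Both were highest where H19 was highest but were not lowest in miR-26a KO. The 6 macrophage markers summed to 595, 686, 225 and 395, most of it from Lyz2, with each of the 6 lowest in miR-26a KO and Ptprc at 0 there. Plin1, a defining marker of fat cells, was at 0 in wild type, in miR-26a KO and with the mimic, and Adipoq was at 0 with the mimic. The part of these cells in the H19 values was not tested.

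**Figure D2:**
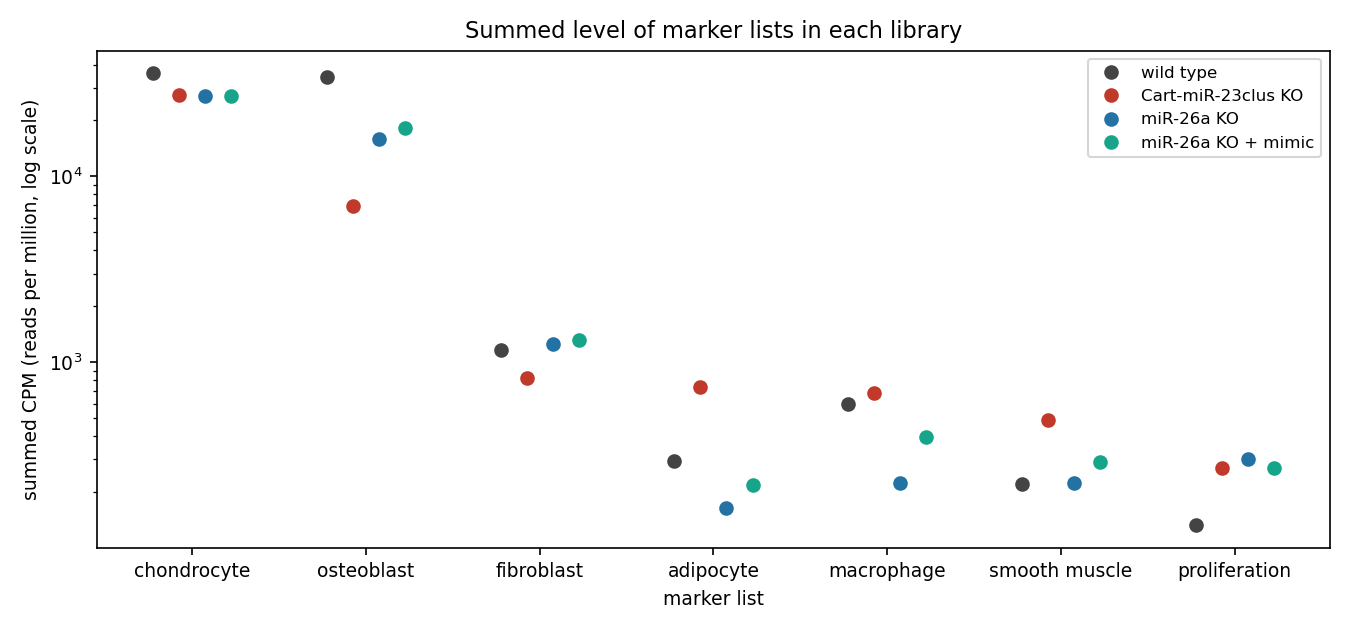
Summed CPM of marker lists (log axis) in each of the 4 libraries, 1 point per library. Adipocyte markers are highest in Cart-miR-23clus KO (733) and lowest in miR-26a KO (164), a low that lies mainly in Lpl and not in Fabp4 or Pparg. The sum of osteoblast markers, mostly Col1a1, is highest in wild type (34156) and the sum of proliferation markers is lowest there (133).

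Igf2 (chr7:142650766-142666816, minus strand) had 0 reads in all 4 libraries. A count of 0 allows up to 3 reads, which is 2.00 to 2.26 CPM in these libraries. Of the last 200 exonic bases of Igf2, 98.5% are also exonic in Gm49394, a protein-coding gene annotated on the same strand at chr7:142650769-142669942, and Gm49394 too had 0 reads. Reads that fall in 2 genes are often discarded by counting tools, and how the study counted such reads is not given in the sources used here.

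Other genes with a shared end were compared. Of 429 protein-coding genes with at least 90% of the last 200 bases in exons of another gene on the same strand, 356 (83.0%) had 0 reads in the 3 libraries with deposited counts. Of 19765 without such overlap on either strand, 7291 (36.9%) had 0 reads, and of 808 whose overlap was on the other strand only, 147 (18.2%). Among imprinted genes Snurf, whose end lies wholly within another gene on the same strand, had 0 reads too, whereas Snrpn had 49 to 55. The 0 of Igf2 therefore cannot be read as absence of its mRNA, and no ratio was formed for it. Its antisense transcript Igf2os had 1 read in wild type and 0 elsewhere, and the gene of its intronic miR-483 had 0 in each library.

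Igf2r (chr17:12682406-12769664, minus strand), the receptor that carries IGF2 to lysosomes for breakdown, had 289, 247, 253 and 250 reads. It was the most even of the 9 genes. The TPM ratios were 0.941 (0.810 to 1.15), 0.961 (0.810 to 1.14) and, with the mimic against miR-26a KO, 0.923 (0.777 to 1.11). The highest library was 1.13 times the lowest, and 96.7% of genes had a larger spread. Airn, the antisense RNA that silences the paternal copy of Igf2r, had 37, 23, 18 and 15 reads, and its ratio in miR-26a KO to wild type was 0.534 (0.287 to 0.964).

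Grb10 (chr11:11930508-12038683, minus strand), an adaptor that binds the insulin and IGF1 receptors and dampens their signal, had 596, 361, 467 and 424 reads. It was highest in wild type and lowest in Cart-miR-23clus KO, at 0.667 of wild type (0.598 to 0.780). In miR-26a KO it was 0.861 of wild type (0.762 to 0.974), and with the mimic 0.848 of miR-26a KO (0.747 to 0.976). Grb10 was the only one of the 10 with a match for miR-26a, and none of its ratios passed 2-fold. The summed osteoblast markers given above, mostly Col1a1, had the same highest and lowest libraries as Grb10. So did Ibsp, Alpl, Sp7 and Ifitm5 alone, whereas Bglap and Runx2 were highest in CPM with the mimic. Runx2 had 47, 33, 45 and 56 reads. The part of osteoblasts in the Grb10 values was not tested.

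Dlk1 (chr12:109452823-109463336, plus strand) encodes a membrane protein related to Notch ligands that holds back fat-cell differentiation and marks early cells of several lineages. It had 18, 220, 80 and 69 reads, or 12.0, 166, 58.7 and 47.6 CPM. Wild type was the lowest of the 4. The ratio to wild type was 13.5 (8.52 to 23.7) in Cart-miR-23clus KO and 4.88 (2.90 to 8.66) in miR-26a KO, and the 18 reads of wild type set the width of both. Cart-miR-23clus KO was 2.76 times miR-26a KO (2.18 to 3.69), and the mimic library was 0.806 of miR-26a KO (0.579 to 1.13).

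Among the 13191 genes, Dlk1 had rank 88 from the top in Cart-miR-23clus KO to wild type. Its 3′ UTR holds the match of 8 bases for miR-27 shown above, which 7.78% of UTRs also hold. The sum of 5 proliferation markers was, like Dlk1, lowest in wild type, at 133, 271, 300 and 269 CPM, although Pcna, one of them, had 41, 31, 45 and 37 reads and was lowest in Cart-miR-23clus KO. The 6 smooth muscle markers summed to 220, 486, 224 and 292 CPM, highest where Dlk1 was highest but level between wild type and miR-26a KO, with Myh11 and Rgs5 at 0 in each. Acta2, a smooth muscle actin, carried most of that sum. Tagln, another of these markers, had 3, 37, 10 and 10 reads and was 13.6 times wild type in Cart-miR-23clus KO (4.41 to 70.6). Of the 9012 genes compared for H19 above, Tagln was the one whose profile lay nearest to that of Dlk1, on 3 reads in wild type. Mustn1, Gm26801, Serpina3n and Cenpp came next. Cnn1, also one of the smooth muscle markers, had 6, 10, 2 and 6 reads and was lowest in miR-26a KO, where Dlk1 was above wild type. The part of other cells in the Dlk1 values was not tested.

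Meg3 (chr12:109541001-109571726, plus strand), a long noncoding RNA of the same cluster used from the other parental copy, had 1759, 2088, 1761 and 1245 reads. Its ratio to wild type was 1.31 (1.26 to 1.43) in Cart-miR-23clus KO and 1.10 (1.03 to 1.18) in miR-26a KO. The mimic library was 0.661 of miR-26a KO (0.618 to 0.715), the lowest of the 4. Dlk1 thus varied 13.5-fold across libraries in which Meg3 varied 1.80-fold. The end of Meg3 is covered on the opposite strand, over 98.5% of its last 200 bases, by Gm26906, which is not in the TPM values, and reads of the pair can be told apart only if strand was used in counting.

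The other RNAs of the cluster were low. Rian, which continues the maternal transcript beyond Meg3, had 30, 54, 35 and 23 reads, and Cart-miR-23clus KO was 1.98 times wild type (1.28 to 3.29). Mirg had 18, 32, 27 and 18. Dio3, the deiodinase that inactivates thyroid hormone and is used from the paternal copy like Dlk1, had 20, 44, 16 and 19, which is 2.42 times wild type (1.43 to 4.45) in Cart-miR-23clus KO and 0.879 of it (0.426 to 1.79) in miR-26a KO. Rtl1 had 1 read in all.

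**Figure D3:**
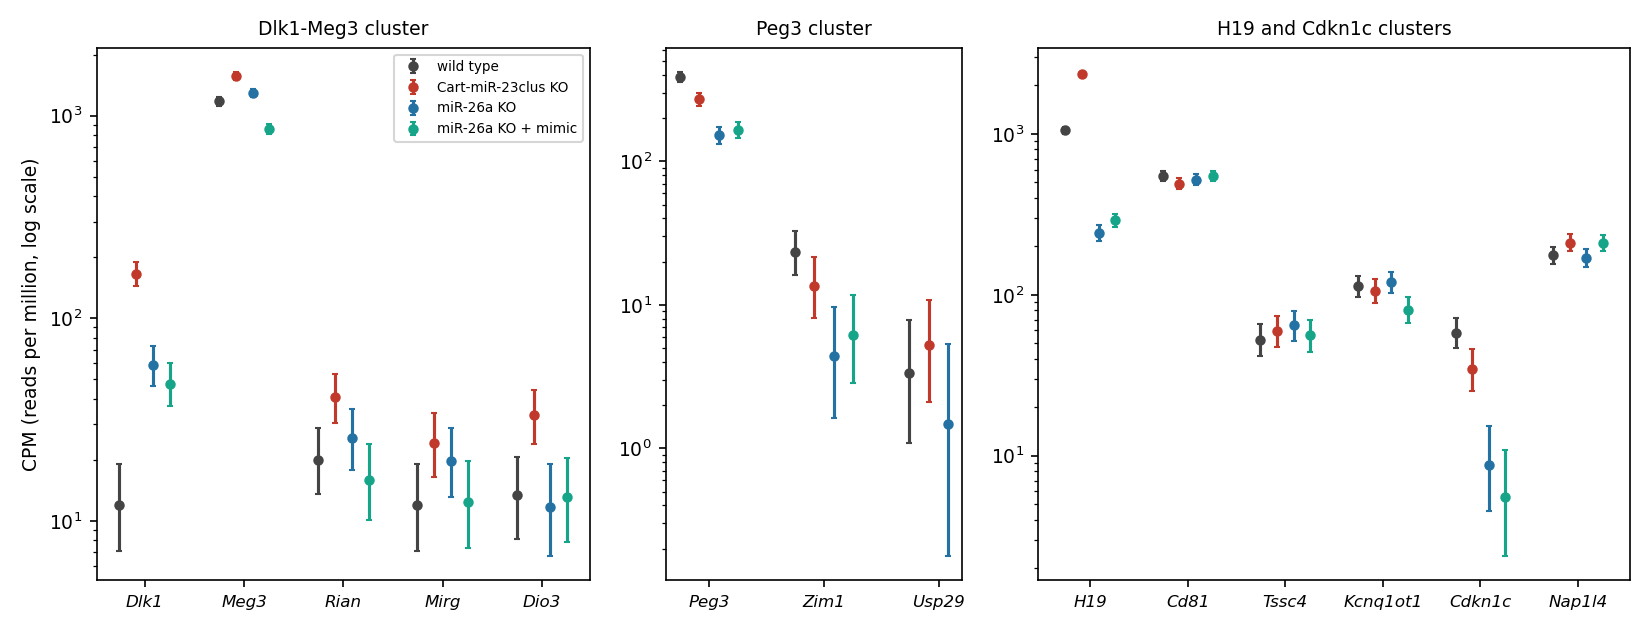
CPM (log axis, exact Poisson 95% intervals, counting error only) of genes in 3 imprinted regions, 1 point per library. Dlk1 spans over an order of magnitude while Meg3 stays between 859 and 1572, Zim1 follows the same order of libraries as Peg3 with wider intervals, and Cd81 and Tssc4, which lie between H19 and Cdkn1c, vary little. A library with 0 reads has no point.

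Cdkn1c (chr7:143458339-143461050, minus strand) encodes p57, an inhibitor of cyclin-dependent kinases that growth plate chondrocytes need to leave the cell cycle and mature. It had 87, 46, 12 and 8 reads. Wild type was highest, and the ratios to it were 0.582 (0.408 to 0.862) and 0.151 (0.0755 to 0.279). The mimic library was 0.623 of miR-26a KO, with an interval of 0.222 to 1.67 that such few reads give.

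Kcnq1ot1, the antisense RNA that silences the paternal copies of this cluster, had 169, 141, 163 and 117 reads, and its miR-26a KO to wild type ratio was 1.06 (0.850 to 1.32). Between H19 and Cdkn1c, Cd81 had 819, 652, 709 and 793 reads and Tssc4 79, 79, 88 and 81. The summed osteoblast markers given above, mostly Col1a1, were also highest in wild type. Their lowest library was Cart-miR-23clus KO, while that of Cdkn1c was the mimic library. The part of osteoblasts in the Cdkn1c values was not tested.

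Of 7 other inhibitors of the cell cycle, 0 were called lower in either knockout against wild type. With the mimic and in Cart-miR-23clus KO 1 was higher (Cdkn3 both times), in miR-26a KO 0, and between the knockouts 1 (Cdkn2a) was lower. A single gene is 14.3% of this short list, where 8.98% of all genes were higher in Cart-miR-23clus KO, 5.64% higher with the mimic and 7.29% lower between the knockouts, and 7.93% and 7.60% were lower in the knockouts against wild type. Cdkn1a (p21) had 1037, 534, 849 and 921 reads, Cdkn1b (p27) 124, 119, 99 and 110, and Cdkn2a 150, 81, 201 and 191. Cdkn2d, at 1.70 (1.18 to 2.47), and Cdkn3, at 1.73 (0.612 to 5.26), had the largest ratios of the list in miR-26a KO to wild type.

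Peg3 (chr7:6703892-6730431, minus strand), a zinc-finger protein used from the paternal copy, had 580, 361, 207 and 241 reads. Wild type was again the highest library, and the 2 libraries of miR-26a KO cells were the lowest. The ratios to wild type were 0.685 (0.614 to 0.802) in Cart-miR-23clus KO and 0.392 (0.333 to 0.461) in miR-26a KO, and the mimic library was 1.09 times miR-26a KO (0.905 to 1.32). Its neighbour Zim1, used from the maternal copy, had 35, 18, 6 and 9 reads, with ratios of 0.566 (0.309 to 1.05) and 0.188 (0.0648 to 0.453). Usp29, which starts beside Peg3, had 5, 7, 2 and 0. The summed chondrocyte markers, mostly Col2a1, were highest in wild type as Peg3 was, at 35852, 27343, 27115 and 27178 CPM, and nearly level elsewhere. The osteoblast sum was also highest in wild type but lowest in Cart-miR-23clus KO. The macrophage sum was lowest in miR-26a KO but highest in Cart-miR-23clus KO. The part of these cells in the Peg3 values was not tested.

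Plagl1 (chr10:13060504-13131694, plus strand), a zinc-finger factor known to bind at other imprinted genes, H19 and Igf2 among them, had 294, 317, 205 and 191 reads. It was 1.19 times wild type in Cart-miR-23clus KO (1.03 to 1.43) and 0.766 of it in miR-26a KO (0.638 to 0.920). With the mimic it was 0.871 of miR-26a KO (0.716 to 1.07). Among the 4 genes with a match for miR-23, 3 (H19, Meg3 and Plagl1) were above wild type in Cart-miR-23clus KO. The other, Peg3, was below it. Of all 9 imprinted genes measured, 5 were above wild type there, and so were 49.6% of all genes tested. The interval of Plagl1 included 1 at 99%, and 0 genes had a miR-23 match of 8 bases. The genes with a match for miR-27 were all above wild type. Of those with a match for miR-24, Meg3 was above and Peg3 below. An effect of the miRNAs on these genes was not tested.

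Mest (chr6:30723547-30748465, plus strand), an enzyme of the α/β-hydrolase fold used from the paternal copy and linked to growth of fat cells, had 983, 1001, 337 and 474 reads. Wild type and Cart-miR-23clus KO lay close together, at a ratio of 1.12 (1.05 to 1.26), and both libraries of miR-26a KO cells lay below them. In miR-26a KO it was 0.377 of wild type (0.332 to 0.427), and with the mimic 1.31 times miR-26a KO (1.15 to 1.53). Wild type was still 2.02 times the mimic library (1.80 to 2.24). Mest holds a match for miR-27, with 9 bases between it and the end of its UTR, and none for miR-26a.

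The 6 macrophage markers given above, at 595, 686, 225 and 395 CPM in sum, had the same order of libraries as Mest, at 656, 754, 247 and 327 CPM, and so did the summed adipocyte markers, at 295, 733, 164 and 219, an order that Lpl sets and that Fabp4 and Pparg, given above, do not follow. Of the 5 genes whose profile lay nearest to that of Mest among the same 9012, 3 are known from macrophages and other white blood cells. They were Clec12a, a receptor of myeloid cells, with 6, 6, 2 and 3 reads, Lcp1, an actin-bundling protein, with 62, 76, 26 and 34, and C1qb, a part of complement, with 71, 84, 24 and 31. The part of macrophages or fat cells in the Mest values was not tested.

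Copg2 ends within Mest on the other strand and covers all of the last 200 bases of Mest. It had 24, 24, 25 and 22 reads. The intronic miR-335 of Mest had 0 reads in each library. Its mature strand is shown because Mest is its host.
mmu-miR-335-5p: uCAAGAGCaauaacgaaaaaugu

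**Figure D4:**
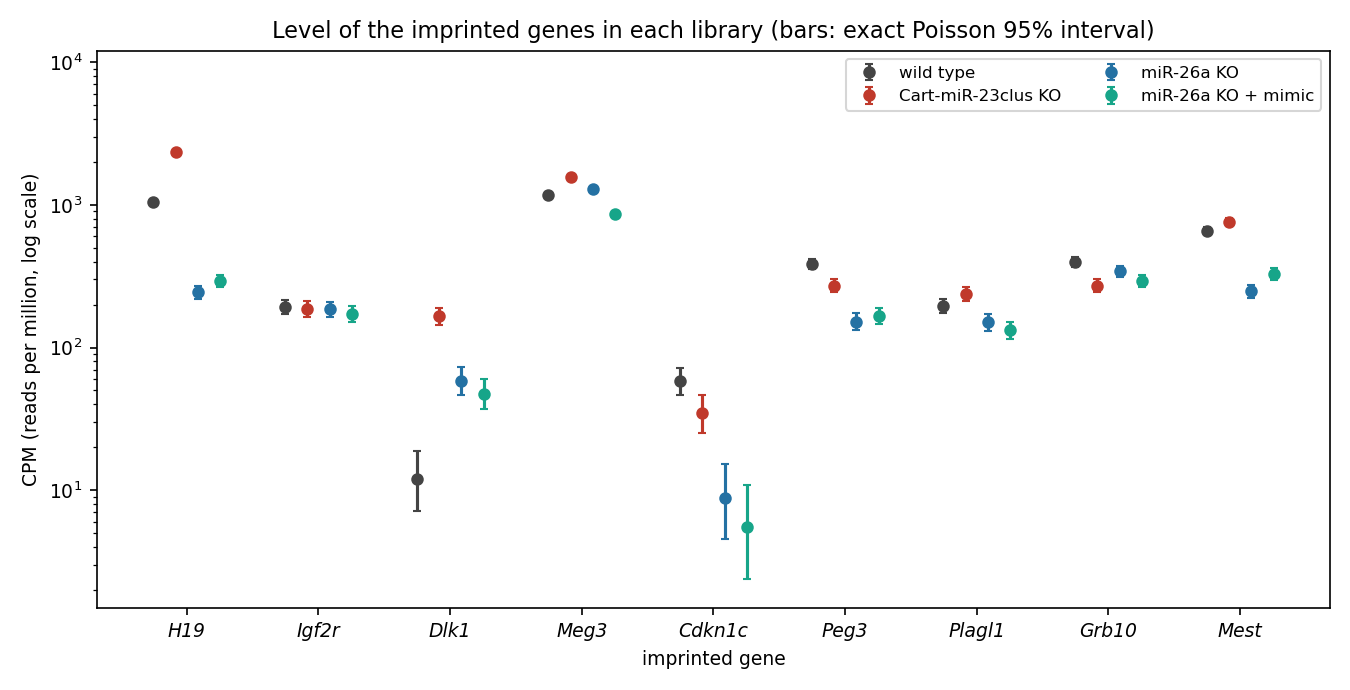
CPM (log axis) of 9 imprinted genes in the 4 libraries, 1 point per library with its exact Poisson 95% interval, which covers counting error only. Igf2, with 0 reads, has no point. H19, Cdkn1c, Peg3, Plagl1 and Mest are lowest in the 2 libraries of miR-26a KO cells, Dlk1 is lowest in wild type and Igf2r is level.

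**Figure D5:**
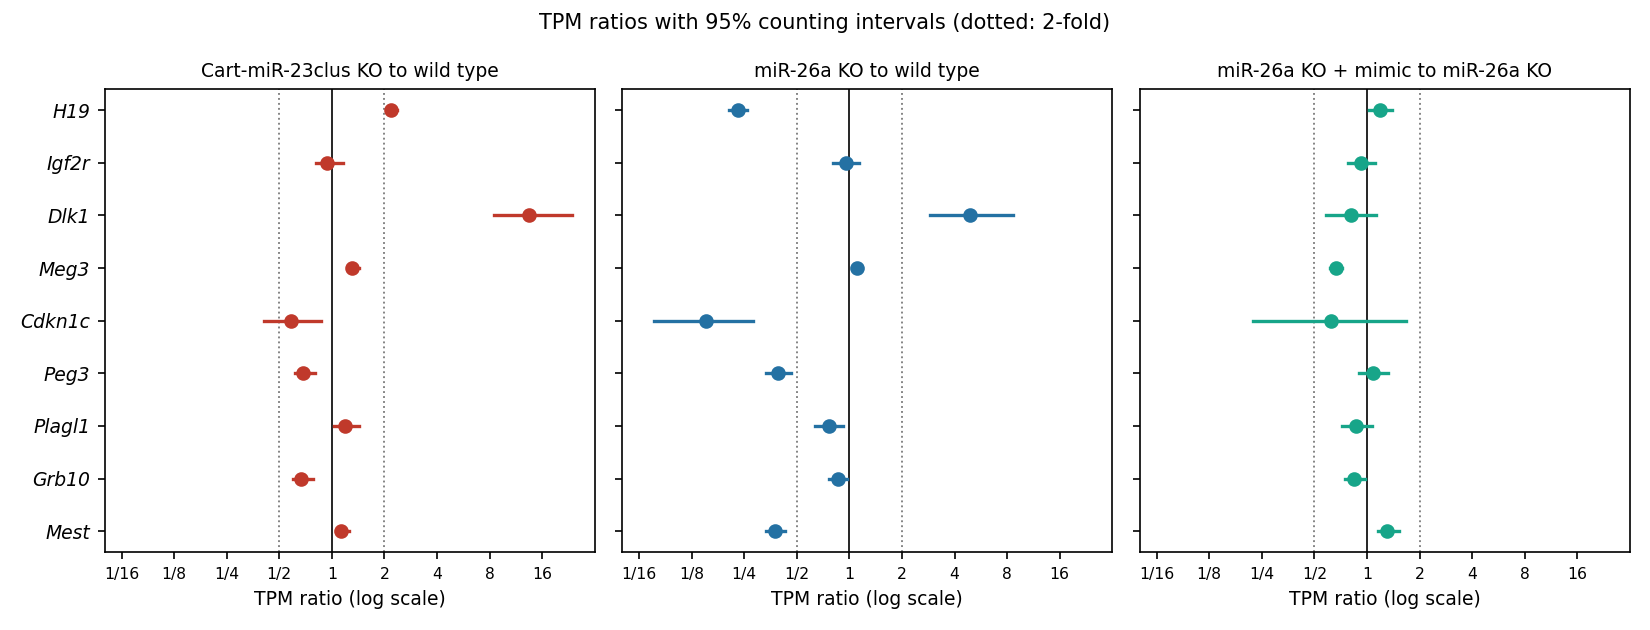
TPM ratios (log axis) of the same 9 genes in 3 comparisons, with 95% counting intervals as lines and 2-fold as dotted lines. In miR-26a KO to wild type, H19, Cdkn1c, Peg3 and Mest lie below 1/2 and Dlk1 above 2, whereas in the mimic comparison all points lie between the dotted lines.

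With the mimic, H19 and Mest were above miR-26a KO and Meg3 and Grb10 below it by intervals that leave out 1, and the other 5 had intervals that include 1. At 99% the intervals of H19 and Grb10 include 1 as well, and those of Mest and Meg3 do not. Of the 4 genes called lower in miR-26a KO, H19 and Mest lay above miR-26a KO with the mimic by their 95% intervals, as 4.40% of all genes did. Peg3 and Cdkn1c had intervals that include 1. These 4 genes were called on the same miR-26a KO library that the mimic ratio divides by. An error that made them low in that library would raise this ratio, so no return toward wild type can be read from it. Transfection itself cannot be told apart from the mimic if the miR-26a KO library was not transfected.

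In order of TPM the genes of wild type were Mest, Meg3, H19, Grb10, Plagl1, Peg3, Cdkn1c, Igf2r and Dlk1, from 2759 to 25.8 TPM. For 99.2% of genes the length behind the TPM equals that of 1 annotated transcript, for example 341 bases for Mest, 1498 for Meg3 and 8887 for Igf2r, although reads of a 3′ method do not grow in number with transcript length. In CPM, Meg3 (1174) came first, then H19 (1053), Mest (656), Grb10 (398), Peg3 (387), Plagl1 (196), Igf2r (193), Cdkn1c (58.1) and Dlk1 (12.0). Grb10 and Peg3, and Plagl1 and Igf2r, could not be placed in order within counting error. In Cart-miR-23clus KO, H19 came before Meg3, and Dlk1 (166) could not be told from Igf2r (186). In miR-26a KO, H19 (243) could not be told from Mest (247).

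Of 53 other imprinted genes, 32 reached 1 TPM on average. In Cart-miR-23clus KO to wild type 2 were higher and 2 lower, in miR-26a KO to wild type 0 and 3, with the mimic 0 and 2, and between the knockouts 5 and 1. That is 6.25% higher and 6.25% lower in the first, where 8.98% and 7.93% of all genes were called. In the second 0% were higher and 9.38% lower, where 7.83% and 7.60% of all genes were. With the mimic it was 0% and 6.25%, where 5.64% and 6.07% were. Between the knockouts it was 15.6% and 3.12%, where 8.05% and 7.29% were. Their median log2 ratios were 0.07, -0.03, -0.09 and 0.08, near those of all genes. Peg10, a retrotransposon-derived gene of the placenta, had 14, 35, 23 and 32 reads, and Cart-miR-23clus KO was 2.75 times wild type (1.48 to 5.68). Ppp1r9a, in the same cluster, had 19, 2, 4 and 7 reads, and its ratios to wild type were 0.116 (0.0134 to 0.492) in Cart-miR-23clus KO and 0.231 (0.0573 to 0.697) in the other knockout. Inpp5f, at 0.245 (0.0617 to 0.761), was the other lower one with the miR-23 clusters deleted. In miR-26a KO the lower ones were Zim1, Ppp1r9a and Sfmbt2, the last with 8 and 3 reads.

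The IGF axis, with 24 of 28 listed genes measured, had 6 higher and 1 lower in Cart-miR-23clus KO to wild type, 4 and 1 in miR-26a KO to wild type, 1 and 1 with the mimic, and 3 and 2 between the knockouts. Against wild type, 6 of 24 higher stands beside 8.98% of all genes for the first knockout and 16.7% beside 7.83% for the second, and the lower ones were 4.17% each time, where 7.93% and 7.60% of all genes were. With the mimic 4.17% were higher and 4.17% lower, where 5.64% and 6.07% of all genes were, and between the knockouts 12.5% and 8.33%, where 8.05% and 7.29% were. Igf1, the growth factor of postnatal life that uses the same receptor as IGF2, had 52, 154, 81 and 71 reads, which is 3.26 times wild type (2.43 to 4.67) in Cart-miR-23clus KO and 1.71 times (1.19 to 2.48) in miR-26a KO. Its receptor Igf1r was even, at 111, 98, 109 and 102 reads. Of the binding proteins, Igfbp6, which prefers IGF2, had 4, 3, 51 and 41 reads, 14.0 times wild type in miR-26a KO (5.15 to 53.4). Igfbp5, abundant in bone, had 841, 523, 387 and 427.

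Inside the cell, the receptor substrate Irs1 had 864, 413, 511 and 582 reads, with ratios of 0.526 (0.479 to 0.607) and 0.650 (0.582 to 0.726). Htra1, a protease that cleaves binding proteins, was the 1 lower gene of the axis in Cart-miR-23clus KO, with 261, 85, 303 and 361 reads. Grb14, the relative of Grb10, had 30, 57, 64 and 66 reads and was 2.34 times wild type in miR-26a KO (1.50 to 3.75), whereas Grb10 was 0.861 of it.

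Of 24 genes that keep or read imprints, 20 were measured. In Cart-miR-23clus KO 1 was higher and 1 lower, in miR-26a KO 0 and 0, with the mimic 1 and 0, and between the knockouts 0 and 0. In Cart-miR-23clus KO 1 gene is 5.00% of the 20, below the 8.98% and 7.93% of all genes called there, and with the mimic it stands beside 5.64%. Where 0 were called, the shares of all genes were 7.83% and 7.60% in miR-26a KO, 6.07% lower with the mimic, and 8.05% and 7.29% between the knockouts. The lower one was Dnmt3a, the methyltransferase that sets imprints in the germ line, with 70, 27, 32 and 40 reads and ratios of 0.425 (0.268 to 0.687) and, in miR-26a KO, 0.502 (0.320 to 0.774). Ctcf, the insulator protein that binds between H19 and Igf2, had 39, 25, 41 and 45 reads and Trim28, which guards imprints after fertilization, 187, 152, 170 and 206. The higher ones in Cart-miR-23clus KO and with the mimic were both Dnmt3l, at 2 to 9 reads per library.

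Of 19 genes of the Notch pathway, to whose ligands Dlk1 is related, 10 were measured, and 0 were higher and 1 lower in Cart-miR-23clus KO to wild type, 1 and 0 in miR-26a KO to wild type, 0 and 1 with the mimic and 0 and 1 between the knockouts. A single gene is 10.0% of the list, where 5.64% to 8.98% of all genes were called in these comparisons and directions. Hes1, a target gene of the pathway, had 16, 20, 38 and 14 reads. It was 2.61 times wild type in miR-26a KO (1.42 to 5.02) and, with the mimic, 0.344 of miR-26a KO (0.173 to 0.654). Jag1, a ligand, was the lower one in Cart-miR-23clus KO, with 10 reads in wild type and 3 there.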

How the data were processed

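RNA of cultured femoral head chondrocytes was measured in 4 libraries, 1 per condition, grouped by the genotype and title in the labels. Per the labels, 3′ libraries were made with QuantSeq (FWD). Single-end reads of 75 bases were mapped to mm10 (GRCm38.p6 in the submitters' notes), and the aligner, counter and strand setting are not given in the sources used here. The deposited estimated counts are whole reads per gene for 3 libraries over 55450 genes, with summary lines at the foot left out. The deposited TPM values were made by the authors from reads, 1 length per gene and library size, for 55141 genes in 4 libraries. Implied lengths equalled an annotated GENCODE M21 transcript within 1 base for 99.2% of genes. Reads of the mimic library were recovered from the steps of its TPM: all 14429 values tested were whole within 0.01 reads, and 588 genes were not recovered. Single-library files held the same values as the series' own.

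Ratios are of TPM. Calls used 0.5 TPM added and 2-fold, over genes reaching 1 TPM on average. Intervals are exact and at 95%. Their coverage was tested only on simulated Poisson reads, the model that they assume. Those reads hold no PCR copies and no spread between cultures, so that test cannot show how well the intervals hold here. The intervals cover counting error only and take each read as an independent molecule. PCR reads without molecular identifiers are not independent molecules, so the intervals may be too narrow even for counting error. No test between conditions was possible. The members and lists were chosen with earlier results of these data known. Named genes are the members, their cluster neighbours, hosted miRNAs, the 5 genes most like H19, and genes among the 3 largest ratios of each list in each comparison. Not all of these are given, and Igf1r, Igfbp5, Irs1, Cdkn1b, Ctcf, Trim28, Snrpn, Snurf, Acta2, Tagln, Fabp4, Pparg, Pcna, Lyz2, Clec12a, Lcp1 and C1qb were named after their values were seen. So were Col1a1, Ibsp, Alpl, Sp7, Bglap, Ifitm5, Runx2, Col2a1, Cnn1, Mustn1, Gm26801, Serpina3n and Cenpp. Alternatives were CPM, edgeR's TMM factors and DESeq2's size factors, 0.1 and 1 TPM added, a mean of 5 TPM or no filter, 99% intervals and matches of 8 bases. Scaling used edgeR 4.0.16 with DESeq2 1.42.0 in R 4.3.3. Other steps used scipy 1.17.1, pandas 2.3.3 and numpy 2.4.6 in Python 3.11.15.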

Additional observations from a re-analysis of the deposited data

How the results depend on the processing

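The 108 ratios of single imprinted genes recomputed by CPM, TMM and DESeq2 factors kept their side of 2-fold, as did 40 counts of them past 2-fold, and 3 of the ratios changed direction, all of Igf2r between the knockouts, from 0.979 to 1.002, 1.009 and 1.004. Of 588 values recomputed 35 moved, where a count within 1.5 times the main count, or a ratio inside its interval, is not taken as moved. The intervals are taken on CPM, so a CPM ratio always lies inside its own and could not move. TMM and DESeq2 apply 1 factor to all genes of a library, for TMM from 0.984 to 1.011, which left little room for a ratio to move. Of 140 list medians 8 changed sign, each at most 0.0886 from 0 (log2) under either setting. With 99% intervals, 1 gene higher and 1 lower, not 2 and 2, left out a ratio of 1 with the mimic (H19 and Grb10 were lost), 4 and not 5 lay above 1 in Cart-miR-23clus KO (without Plagl1) and 5 and not 6 below 1 in miR-26a KO (without Grb10). Matches of 8 bases were in 0 of 10 genes for miR-23, 2 for miR-27 and 1 for miR-24. Small counts of the other lists moved, and list medians stayed within 0.25 (log2) of their main value. For other imprinted genes, 0.1 TPM added gave 4 and 1 TPM added 2 lower in miR-26a KO, not 3, and a mean of 5 TPM gave 1 higher and 1 lower in Cart-miR-23clus KO, 0 lower in miR-26a KO, 0 lower with the mimic and 2 higher between the knockouts. No filter gave 5 lower, 2 higher and 6 lower, 2 higher and 4 lower, and 4 lower in these comparisons. Adding 1 TPM gave 1 lower with the mimic and 0 lower between the knockouts. For the IGF axis in miR-26a KO, 1 TPM added and a mean of 5 TPM gave 2 higher, TMM and DESeq2 factors 2 lower, and a mean of 5 TPM gave 0 lower with the mimic. For imprint maintenance, CPM and 0.1 TPM added gave 2 higher in Cart-miR-23clus KO, and TMM and DESeq2 factors 1 lower in miR-26a KO. For Notch genes, 1 TPM added and a mean of 5 TPM gave 0 lower in Cart-miR-23clus KO and between the knockouts, and no filter gave 1 higher in Cart-miR-23clus KO, 3 higher in miR-26a KO, 4 lower with the mimic and 2 lower between the knockouts. A filter's change comes from which low genes are counted, and for the other settings the cause was not tested. With 1 library per condition none could be left out. No paired analysis was possible because no condition was sequenced more than once. Depth limits Cdkn1c and Dlk1, with 8 to 87 and 18 to 220 reads, and values of genes below 20 reads.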
